A study of Mus musculus with 8 samples.

Results

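The methionine cycle and transsulfuration genes described here are 10 enzymes, chosen as named enzymes of the pathway by a rule that uses no measured value, though with earlier results of these data known: *Mat1a*, *Mat2a*, *Gnmt*, *Bhmt*, *Cbs*, *Cth*, *Pemt*, *Shmt1*, *Mthfd1* and *Cdo1*. They are 10 of the 23282 gene rows in the deposited count tables. All 10 had counts in every library and all 10 passed the filter on low counts.

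The study asked how LGK974, a small molecule that blocks Wnt secretion, alters the response of mice to lipopolysaccharide (LPS), a bacterial endotoxin. RNA came from whole livers of C57BL/6 mice, labelled male and 4 weeks old, and was sequenced with QuantSeq, which reads the 3′ end of each transcript. The control group received saline. The endotoxemic group received 25 mg/kg LPS. By the study's account the LGK974 group received LGK974 at 60 mg/kg on top of the same dose of LPS, whereas its labels name LGK974 alone. Livers were collected 6 h after LPS, and in most of the study's experiments LGK974 preceded LPS by 2 h. If the study's account holds, no sequenced group received LGK974 without LPS, so an effect of LGK974 in a healthy liver cannot be measured here.

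There were 2 control, 4 endotoxemic and 2 LGK974 libraries, of 9142116 to 15222439 counts. Endotoxemic libraries 3 and 4 held the same count as libraries 1 and 2 on every row and were counted once, which left 2 distinct libraries per group. The labels do not say whether libraries came from separate mice, so p-values measure the spread between libraries, which may be technical. The control and endotoxemic libraries held 1171 to 3115 counts of the female transcript *Xist* and 0 of the Y-linked *Ddx3y*, against 3 and 7 counts of *Xist* and 1755 and 1392 of *Ddx3y* in the LGK974 libraries. This goes against the male label of the control and endotoxemic mice. In every comparison that involves the LGK974 group, sex and treatment therefore cannot be told apart. Of the rows whose symbol has a RefSeq position, 579 stood out of genomic order. All 10 enzymes stood on rows in order, between neighbours on the same chromosome, except that the row before *Cth* carried *Aim2*, a symbol of another chromosome. Of 10 hepatocyte markers, 8 stood on rows in order and all 8 had counts in every library. Their summed levels, 83850 to 119400 CPM in control and 67570 to 95660 in endotoxemic libraries, were mostly *Alb* and *Fgb*, the latter an acute-phase gene that rose after LPS. Neutrophil markers, of which 3 of 7 were on rows in order, summed to 1.76 and 2.35 CPM (read counts scaled to a common library size) in control, 56.5 and 70.8 in endotoxemic and 33.1 and 34.5 in LGK974 libraries.

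The methionine cycle makes S-adenosylmethionine, the methyl donor of the cell, from methionine and ATP. Methyltransferases use it, and the homocysteine that results is either methylated back to methionine or passed into transsulfuration, which makes cysteine. Folate carries the one-carbon units that support remethylation. The liver is the main site of these reactions, and hepatocytes hold the liver-specific enzymes of the pathway. In bulk tissue, fewer cells of a type and less RNA per cell cannot be told apart.

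In the control livers the enzymes spanned a wide range of levels, given here as CPM normalized by the trimmed mean of M values (TMM). A 3′-end count does not grow with transcript length, so length does not enter the order of different genes. Other differences between genes in how their 3′ ends are counted remain, such as the overlaps of *Mat2a* and *Shmt1* given below. The order is therefore one of counts. *Mat1a* was highest at 5298 ± 17.8 CPM (SD, n = 2), followed by *Gnmt* at 3460 ± 77.9, *Cdo1* at 2871 ± 219 and *Bhmt* at 1681 ± 203. *Cbs*, *Cth* and *Pemt* stood between 258 and 463 CPM, and *Shmt1*, *Mthfd1* and *Mat2a* between 99.8 and 139 CPM. The values of neighbours in this order overlapped only for *Shmt1* and *Mthfd1*. In the endotoxemic livers the order changed. *Cth* fell from the sixth to the eighth place and *Mat2a* moved from the last to the sixth, where its values overlapped those of *Cbs*.

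**Figure D1:**
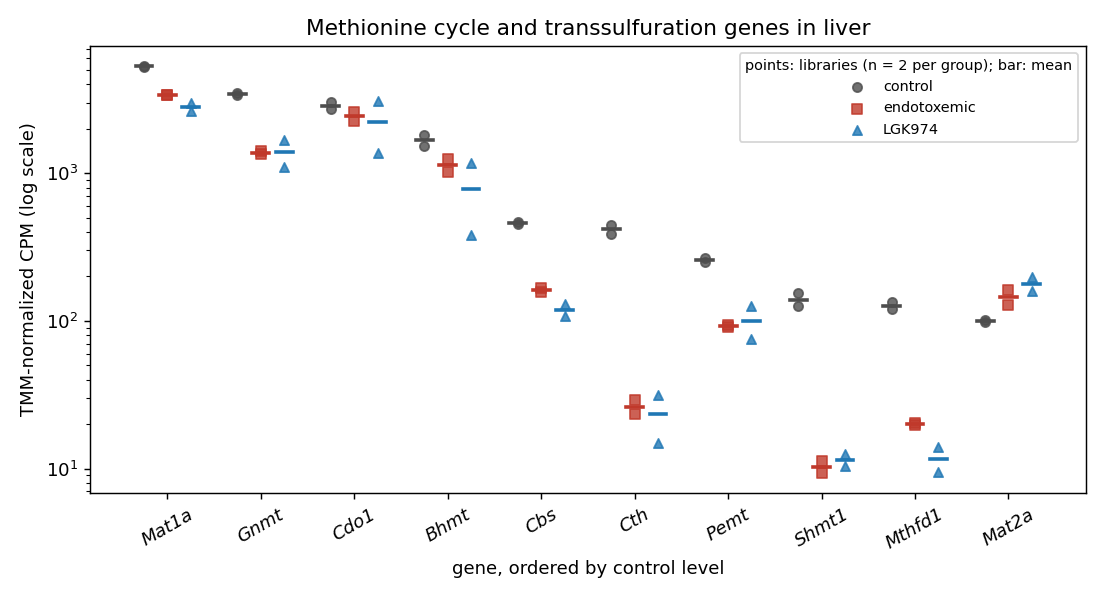
TMM-normalized CPM on a log scale for each of the 10 enzymes, ordered by control level, in control (circles), endotoxemic (squares) and LGK974 (triangles) livers. Points are libraries, n = 2 per group, and bars are means; *Cth*, *Shmt1* and *Mthfd1* fall by the widest margins from control, and *Mat2a* has its lowest values in control.

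After LPS, 7 of the 10 enzymes were lower than in control livers and none was called higher. *Cth*, which splits cystathionine to release cysteine, fell 16.0-fold, and *Shmt1* and *Mthfd1*, which load and convert one-carbon units on folate in the cytosol, fell 13.5-fold and 6.30-fold. *Cbs*, *Pemt* and *Gnmt* fell 2.51-fold to 2.85-fold and *Mat1a* 1.57-fold. *Bhmt*, *Cdo1* and *Mat2a* did not pass the test, for which edgeR's quasi-likelihood method was used with p-values adjusted over 12701 genes by the Benjamini-Hochberg procedure and a threshold of 0.05. Over all genes tested, 23.0% were called lower and 20.4% higher. The median log2 fold change of the 10 enzymes was -1.40, against 0.01 for all genes. The 8 hepatocyte markers on rows in order had 5 lower and 1 higher in the same comparison, with a median of -1.09, among them *Cyp2e1* at -3.64, *Cps1* at -1.98, *Ttr* at -1.48, *Alb* at -1.17 and *Fgb* at 2.08. Their part in the fall of the enzymes was not tested. For the count of 0 enzymes called higher, the unadjusted p was below 0.05 for 1 enzyme, and the DESeq2 Wald test called 1 higher, in both cases *Mat2a*.

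**Figure D2:**
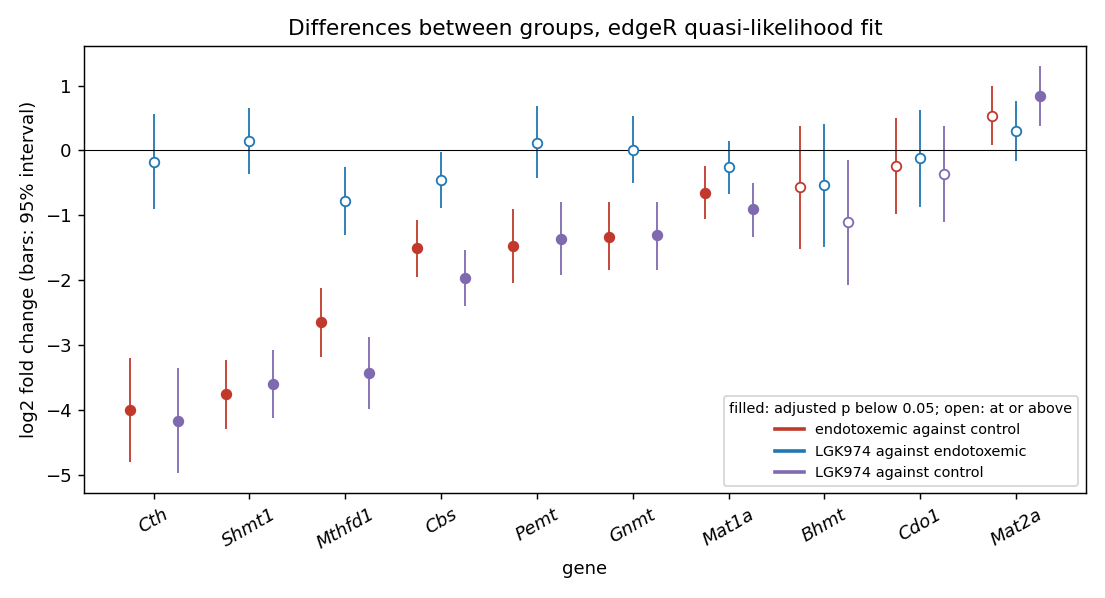
log2 fold change of each enzyme in the 3 comparisons of the edgeR fit, with 95% intervals as bars and filled points where the adjusted p was below 0.05. *Cth* lies at -4.00 in the endotoxemic and -4.17 in the LGK974 livers relative to control, and the differences between LGK974 and endotoxemic livers lie between -0.78 and 0.30.

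S-adenosylmethionine is made by methionine adenosyltransferases. *Mat1a* encodes the catalytic subunit of the adult hepatocyte enzyme, and *Mat2a* encodes the subunit used by most other cells and by dividing hepatocytes. *Mat1a* (chr14:41105035-41124412, GRCm38) counted 5285 and 5311 CPM in control livers, 3388 and 3371 in endotoxemic livers and 2647 and 2987 in LGK974 livers. Each group stood apart from the others. After LPS *Mat1a* fell by 0.65 on the log2 scale (SE 0.18, edgeR adjusted p = 0.0185). That call did not hold when any 1 of the 4 endotoxemic or control libraries was left out, with log2 fold changes of -0.59 to -0.65 and edgeR adjusted p of 0.0982 to 0.139. *Mat2a* (chr6:72432799-72439558) had its values in the opposite order, at 97.8 and 102 CPM in control, 129 and 161 in endotoxemic and 197 and 160 in LGK974 livers. Both endotoxemic values lay above both control values. The log2 fold change after LPS was 0.54 (SE 0.20, 95% interval 0.08 to 1.00, edgeR adjusted p = 0.0578), which did not pass the threshold. It did pass in 8 of 16 alternative analyses, where adjusted p ranged from 0.00923 to 0.329 over all of them. At the 3′ end of *Mat2a* the RefSeq model of *Ggcx* overlapped it by 564 bases, and *Ggcx* counted 108 to 541 against 1054 to 2614 counts of *Mat2a*. The ratio of *Mat1a* to *Mat2a* counts was 54.0 and 52.2 in control, 26.3 and 20.9 in endotoxemic and 13.4 and 18.7 in LGK974 livers. *Mat1a* thus outnumbered *Mat2a* in every library, and the ratios of the 3 groups did not overlap. With 2 libraries per group an exact two-sided permutation test of this ratio cannot go below p = 0.333.

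Methyl groups leave and re-enter the cycle through *Gnmt*, *Pemt* and *Bhmt*. *Gnmt* (chr17:46725664-46729168), which methylates glycine to sarcosine and so disposes of surplus S-adenosylmethionine, counted 3405 and 3515 CPM in control, 1354 and 1406 in endotoxemic and 1690 and 1099 in LGK974 livers. Control stood above both other groups, and the LGK974 values lay on either side of the endotoxemic pair. After LPS *Gnmt* fell by 1.33 on the log2 scale (SE 0.23, edgeR adjusted p = 0.00175). *Pemt* (chr11:59970614-60046489), which makes phosphatidylcholine by methylating phosphatidylethanolamine, counted 266 and 249 CPM in control, 94.1 and 90.9 in endotoxemic and 75.6 and 126 in LGK974 livers. The pattern was that of *Gnmt*, with the highest values in control. *Pemt* fell by 1.48 (SE 0.25, edgeR adjusted p = 0.00142). *Bhmt* (chr13:93616675-93637961), which returns a methyl group from betaine to homocysteine, counted 1537 and 1824 CPM in control, 1026 and 1243 in endotoxemic and 1175 and 382 in LGK974 livers. Control and endotoxemic values did not overlap, but the LGK974 libraries were far apart. The log2 fold change after LPS was -0.57 (SE 0.42, 95% interval -1.52 to 0.38, edgeR adjusted p = 0.302). Without LGK974 library 1 or library 2, or in a fit of control and endotoxemic libraries alone, *Bhmt* passed the test at -0.56, -0.56 and -0.54, with adjusted p of 0.00581, 0.0064 and 0.0108. The annotation also holds 1 pseudogene named after *Bhmt*.

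The cytosolic folate enzymes were the lowest of the 10 after LPS. *Shmt1* (chr11:60788104-60811718), which moves a one-carbon unit from serine to tetrahydrofolate, counted 125 and 153 CPM in control, 9.38 and 11.2 in endotoxemic and 10.4 and 12.5 in LGK974 livers. Control stood far above the other groups, which overlapped each other. *Shmt1* fell by 3.76 on the log2 scale after LPS (SE 0.24, edgeR adjusted p = 5.08e-06). The last 184 bases of *Shmt1* overlap *Smcr8* on the opposite strand. *Smcr8* counted 376 and 745 in control, 96 and 101 in endotoxemic and 140 and 119 in LGK974 libraries, against 86 to 2347 counts of *Shmt1*. Whether counting used the strand is not given in the sources used here, so reads in that overlap cannot be assigned to either gene with certainty. *Mthfd1* (chr12:76255298-76319803), a single protein with several activities that interconvert folate one-carbon units, counted 120 and 134 CPM in control, 19.9 and 20.4 in endotoxemic and 9.44 and 13.9 in LGK974 livers. The groups were fully separated, and the LGK974 libraries were lowest. *Mthfd1* fell by 2.65 after LPS (SE 0.24, edgeR adjusted p = 3.56e-05).

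Transsulfuration consists of *Cbs*, which joins homocysteine to serine, and *Cth*. *Cbs* (chr17:31608894-31637238) counted 471 and 454 CPM in control, 168 and 156 in endotoxemic and 130 and 107 in LGK974 livers. *Cth* (chr3:157894248-157925077) counted 389 and 449 CPM in control, 29.2 and 23.2 in endotoxemic and 31.7 and 14.96 in LGK974 livers. Both genes stood at similar control levels and were far apart after LPS. After LPS *Cbs* fell by 1.51 on the log2 scale (SE 0.19, edgeR adjusted p = 0.000268) and *Cth* by 4.00 (SE 0.35, edgeR adjusted p = 3.39e-05). The endotoxemic mean was 35% of the control mean for *Cbs* and 6.26% for *Cth*. Neither call was lost in any of the 16 alternative analyses.

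The promoters of 3 genes that fell after LPS are shown beside that of *Mat2a*, the 1 enzyme called higher than control in LGK974 livers, so that their start regions can be read together. They are RefSeq sequences on GRCm38.p6 of the 250 bases before the start site of each promoter entry. They are written in the direction of transcription, with motif matches in capitals. The gene positions given in this report are GENCODE spans, whose starts differ from those of the entries. The *Shmt1* window lies inside that span, the *Cbs* and *Mat2a* windows overlap it, and the *Mthfd1* window ends before it. The motifs searched, on both strands, were the CCAAT box (CCAAT, or ATTGG on the other strand), the TATA box (TATAAA), the E-box (CACGTG), a core of the amino acid response element (TGATGNAA), a STAT element (TTCNNNGAA) and a κB core (GGANTTTCC).
Shmt1, chr11:60811266-60811515, minus strand: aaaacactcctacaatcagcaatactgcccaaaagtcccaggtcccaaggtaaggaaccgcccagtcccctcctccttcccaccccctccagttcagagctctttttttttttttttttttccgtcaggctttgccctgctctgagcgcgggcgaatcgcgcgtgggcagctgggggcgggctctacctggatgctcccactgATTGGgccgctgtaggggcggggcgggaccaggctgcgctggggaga
Mthfd1, chr12:76254982-76255231, plus strand: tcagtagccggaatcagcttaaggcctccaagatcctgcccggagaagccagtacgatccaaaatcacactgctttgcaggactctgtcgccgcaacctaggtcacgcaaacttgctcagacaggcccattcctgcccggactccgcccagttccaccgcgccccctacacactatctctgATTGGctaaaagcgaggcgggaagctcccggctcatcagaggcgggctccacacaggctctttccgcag
Cbs, chr17:31637206-31637455, minus strand: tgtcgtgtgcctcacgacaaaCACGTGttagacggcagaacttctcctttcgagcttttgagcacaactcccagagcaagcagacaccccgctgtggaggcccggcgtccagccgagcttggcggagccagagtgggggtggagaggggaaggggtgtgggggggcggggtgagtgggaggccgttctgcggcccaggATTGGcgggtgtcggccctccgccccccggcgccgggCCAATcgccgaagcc
Mat2a, chr6:72439557-72439806, minus strand: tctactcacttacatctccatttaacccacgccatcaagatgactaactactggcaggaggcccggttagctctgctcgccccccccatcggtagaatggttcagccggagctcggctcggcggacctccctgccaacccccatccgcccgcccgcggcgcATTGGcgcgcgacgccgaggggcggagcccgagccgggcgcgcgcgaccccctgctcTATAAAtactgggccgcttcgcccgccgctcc

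Distances here are counted from the start site of each promoter entry and not from the gene positions given in this report. All 4 of these promoters held a CCAAT box, which begins 47 bases before that start in *Shmt1*, 69 in *Mthfd1*, 52 and 15 in *Cbs* and 89 in *Mat2a*. *Cbs* also held an E-box 229 bases upstream and *Mat2a* a TATA box 32 bases upstream. Among all 32817 promoter windows of that length, 33.8% held CCAAT, 12.4% TATAAA, 6.02% CACGTG, 3.45% TGATGNAA, 7.01% TTCNNNGAA and 1.07% GGANTTTCC. Of 9 members looked up, 7 had an entry. The CCAAT box also stood 62 bases upstream in *Gnmt* and 56 in *Bhmt*. An entry of *Pemt* held a CCAAT box 248 bases upstream and a STAT element 23 bases upstream, and its other entry held none of the motifs. A match describes the letters in the window and no more.

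*Cdo1* encodes cysteine dioxygenase, the first step from cysteine toward taurine and sulfate. It counted 3026 and 2717 CPM in control, 2598 and 2258 in endotoxemic and 3085 and 1370 in LGK974 livers. The endotoxemic values lay just below control, and the LGK974 values spanned the whole range of both other groups. The log2 fold change after LPS was -0.24 (SE 0.33, 95% interval -0.98 to 0.50, edgeR adjusted p = 0.582), so a fall of up to 0.98 on the log2 scale lies within its interval. *Cdo1* lies at chr18:46713193-46728395.

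In livers given LGK974 and LPS, none of the 10 enzymes was called different from the endotoxemic group by edgeR. Of all genes, 2.80% were called higher and 2.82% lower in this comparison, so a count of 0 among 10 is near the background and is no result about the enzymes. The unadjusted p was below 0.05 for 2 enzymes, *Mthfd1* (0.00871) and *Cbs* (0.0402), both lower in the LGK974 livers, and the DESeq2 Wald test called 1 of them, *Mthfd1*. The median log2 fold change was -0.15 over the 10 enzymes and 0.03 over all genes. *Mthfd1* differed most, at -0.78 (SE 0.23, 95% interval -1.31 to -0.25, edgeR adjusted p = 0.0882), and both LGK974 values lay below both endotoxemic values. *Cbs* and *Mat1a* were arranged the same way, at -0.45 (95% interval -0.88 to -0.03, edgeR adjusted p = 0.197) and -0.26 (95% interval -0.67 to 0.15, edgeR adjusted p = 0.428). The LGK974 and endotoxemic values of the other 7 enzymes overlapped. With 2 libraries per group, full separation in either direction has a probability of 0.333 when the groups do not differ. The number of separated enzymes is therefore no result about them, and the share over all genes is not given here. For *Cth* the interval ran from -0.90 to 0.56, for *Shmt1* from -0.36 to 0.66 and for *Gnmt* from -0.50 to 0.53, so changes of those sizes cannot be told from none at this number of libraries. An 8-gene list of female-biased liver genes summed to 1080 and 1141 CPM in control, 110.4 and 109.5 in endotoxemic and 4.23 and 3.93 in LGK974 libraries, and an 8-gene list of male-biased genes to 381 and 439, 231 and 266, and 3501 and 1714. Most of the male-biased sum in the LGK974 libraries was *Mup20*, at 2520 and 1226 CPM. *Hsd3b5* and *Elovl3* of that list had lower means than control, at 0.483 against 2.53 and 2.94 against 3.84 CPM. Relative to control, 5 genes of that list were called higher and 0 lower, against 16.4% and 17.7% of all genes. The part of sex in the members' values was not tested.

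The LGK974 libraries differed from each other by more than the median gene in 6 of the 10 enzymes. This count is near what the definition of a median gives and is no result about the enzymes. *Bhmt* was 3.07-fold higher in library 1 than in library 2, *Cdo1* 2.25-fold and *Cth* 2.12-fold, and *Gnmt* 1.54-fold. *Pemt* and *Mthfd1* were 1.66-fold and 1.48-fold higher in library 2. The median fold between these libraries was 1.26 over the 7113 genes with a mean of at least 10 CPM. Between the control or between the endotoxemic libraries no enzyme differed by more than 1.26-fold. Leaving out LGK974 library 1 brought *Bhmt* to -1.57 (edgeR adjusted p = 0.000109), *Cdo1* to -0.82 (0.00442), *Cth* to -0.81 (0.0234) and *Cbs* to -0.59 (0.0364) relative to the endotoxemic group, all 4 past the threshold. With a single LGK974 library left, such a fit takes its spread from the control and endotoxemic libraries and assumes that the lone library varies like them. Leaving out LGK974 library 2 brought *Mthfd1* to -1.09 (edgeR adjusted p = 0.00887) and the other enzymes past no threshold. The libraries also differed in the share of the ribosomal row *Rn45s*, at 4.8% and 9.38% of counts. Some hepatocyte markers differed too, with *Tat* at 683 and 179 CPM, *Cps1* at 360 and 107 and *Cyp2e1* at 585 and 384 in libraries 1 and 2. Of the other hepatocyte markers on rows in order, *Apob* was at 291.9 and 181.3, *Ttr* at 4853 and 3773 and *Apoa1* at 4978 and 4373. *Alb* was nearly equal, at 23870 and 23600, and *Fgb* was higher in library 2, at 38150 and 41450. The summed hepatocyte markers, mostly *Alb* and *Fgb*, were 73770 and 74050 CPM. Among cholangiocyte markers *Sox9* was at 24.6 and 71.3 CPM and *Spp1* at 8.98 and 20.03, while the other 4 of the 6 markers were lower in library 2, with *Krt19* at 2.94 and 0.744, *Epcam* at 1.21 and 0.271, *Krt7* at 0.302 and 0 and *Cftr* at 0.0755 and 0. The part of these differences in the members' values was not tested.

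**Figure D3:**
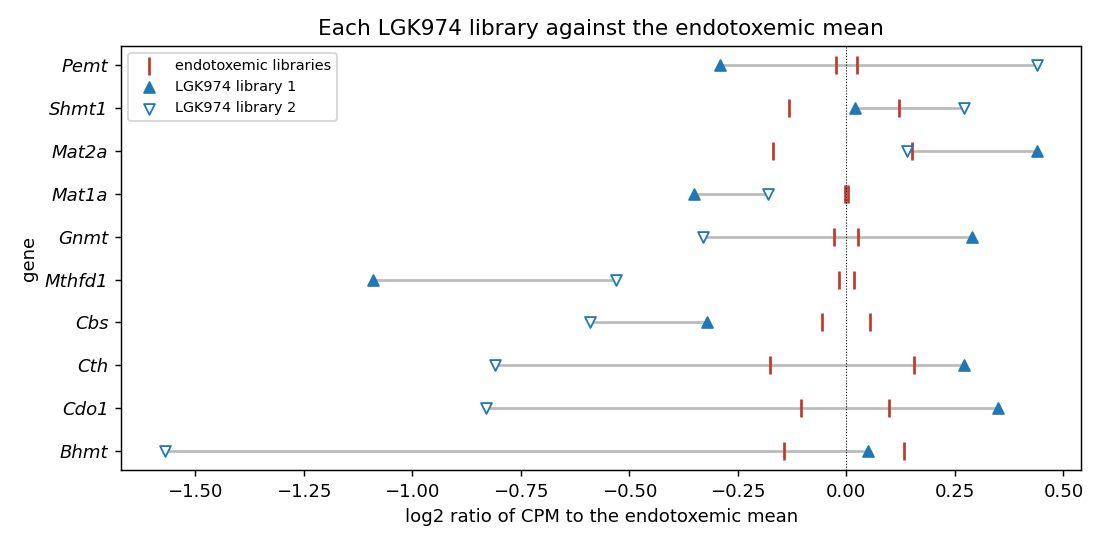
log2 ratio of CPM in each LGK974 library to the endotoxemic mean, for the 10 enzymes; filled triangles are LGK974 library 1, open triangles library 2, and vertical ticks the endotoxemic libraries. *Bhmt* spans from 0.05 in library 1 to -1.57 in library 2, while both libraries lie below the endotoxemic ticks for *Mthfd1*, *Cbs* and *Mat1a*. With 2 libraries per group, such full separation in either direction has a probability of 0.333 without any difference.

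Relative to control, the LGK974 livers had 7 enzymes lower and 1 higher, against 17.7% and 16.4% of all genes. Those lower were *Cth* at -4.17, *Shmt1* at -3.61, *Mthfd1* at -3.43, *Cbs* at -1.96, *Pemt* at -1.36, *Gnmt* at -1.31 and *Mat1a* at -0.91 on the log2 scale, with edgeR adjusted p from 6.36e-06 to 0.00488. The enzyme called higher was *Mat2a*, 1.79-fold (log2 fold change 0.84, SE 0.20, edgeR adjusted p = 0.0122). It lost the call without control library 1 (0.81, adjusted p = 0.108) or control library 2 (0.87, adjusted p = 0.084). *Bhmt* was at -1.11 (SE 0.42, 95% interval -2.07 to -0.15, edgeR adjusted p = 0.0718) and *Cdo1* at -0.37 (SE 0.33, 95% interval -1.11 to 0.38, edgeR adjusted p = 0.427). In fits with a single LGK974 library, which again borrow the spread of the other groups, they were without library 1 at -2.13 (adjusted p = 1.82e-06) and -1.06 (adjusted p = 0.000264), and without library 2 at -0.51 (adjusted p = 0.0407) and 0.11 (adjusted p = 0.629). The median over the 10 enzymes was -1.33, against 0.02 over all genes. This comparison and the one of endotoxemic with control livers share the control libraries. The 10 enzymes together took 1.436% and 1.498% of all counts in control, 0.884% and 0.895% in endotoxemic and 0.883% and 0.636% in LGK974 libraries.

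The remaining enzymes of the cycle moved in both directions after LPS. *Ahcy*, which splits S-adenosylhomocysteine to homocysteine, carried its symbol on a misplaced row. Its gene lies on chromosome 2 and its row stood between *Shpk* and *Trpv3* of chromosome 11. Under its symbol the counts were 9190 and 14875 in control, 0 and 0 in endotoxemic and 2 and 0 in LGK974 libraries. The row at its genomic place carried the symbol *Cd6* and held 1 and 0 counts in control, 2983 and 3479 in endotoxemic and 5606 and 5760 in LGK974 libraries. With the counts at that place read as *Ahcy* in the endotoxemic and LGK974 libraries, *Ahcy* was lower after LPS, at -1.39 (SE 0.19, edgeR adjusted p = 0.00045), and was 0.22 in LGK974 against endotoxemic livers (SE 0.19, edgeR adjusted p = 0.515). Across 445 misplaced symbols matched to a gene at their place, control and endotoxemic counts correlated at a Spearman rho of 0.065 by symbol and 0.807 by place, a description across genes. *Ahcy* is therefore given under both readings, and it enters none of the counts below. *Bhmt2*, a relative of *Bhmt*, fell by 3.44 (SE 0.30, edgeR adjusted p = 3.41e-05), from 114 CPM in both control libraries to 11.02 and 10.02. *Ahcyl1*, a relative of *Ahcy*, fell by 0.71 (edgeR adjusted p = 0.0364). *Ahcyl2* rose by 1.08 and *Mtrr*, which keeps methionine synthase active, by 1.11, with edgeR adjusted p of 0.0321 and 0.0235. Both genes were low, at 43 to 138 counts in control and endotoxemic libraries. The calls of *Ahcyl1* and *Mtrr* were lost without any 1 of the endotoxemic or control libraries (edgeR adjusted p of 0.0832 to 0.222) and that of *Ahcyl2* without endotoxemic library 2 or either control library (0.0902 to 0.209). *Mtr*, methionine synthase itself, was at -0.46 (95% interval -1.32 to 0.40, edgeR adjusted p = 0.355) and *Mat2b*, a regulatory subunit, at -0.33 (95% interval -0.90 to 0.25, edgeR adjusted p = 0.327).

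Around the cycle, most of the tested genes were called lower after LPS in 3 of 6 related lists, those of betaine and sarcosine oxidation, small-molecule methyltransferases, and cysteine, taurine, sulfide and glutathione metabolism. All 5 genes of betaine and sarcosine oxidation were called lower, with a median of -2.12. They included *Sardh*, which breaks down the sarcosine made by *Gnmt*, at -2.28 (SE 0.26), and *Chdh*, which starts betaine synthesis from choline, at -2.17 (SE 0.37). Of 7 small-molecule methyltransferases tested, 6 were lower, among them *Hnmt* at -2.48 and *Inmt* at -2.29, and *Nnmt*, which methylates nicotinamide, rose from 190.5 CPM in both control libraries to 669 and 756 (1.90, SE 0.19). Of 20 folate enzymes and carriers tested, 9 were lower and 2 higher, with a median of -0.67. Those higher were the mitochondrial enzymes *Mthfd2* (5.62, SE 0.36, from 7 and 8 counts to 267 and 268) and *Mthfd1l* (2.98, SE 0.35). Lower ones included *Gldc*, of glycine cleavage, at -2.81. Among 14 genes of cysteine, taurine, sulfide and glutathione metabolism tested, 11 were lower and 2 higher, with a median of -1.24. *Gclm*, of glutathione synthesis, was at -2.44 and *Suox*, sulfite oxidase, at -2.20. The cystine importer *Slc7a11* counted 1 and 0 in control, 29 and 43 in endotoxemic and 11 and 12 in LGK974 libraries, and its fitted value of 6.30 depends on the near-empty control, being 8.59 without control library 1 and 5.23 without control library 2. *Chac1*, which degrades glutathione, rose by 1.28 (SE 0.41). The call of *Inmt* was lost without endotoxemic library 1 or 2 or control library 1 (edgeR adjusted p of 0.0526 to 0.113), and that of *Chac1* without endotoxemic library 2 or either control library (0.109 to 0.254). With all libraries, the edgeR adjusted p of these genes ranged from 5.81e-06 to 0.032. Over all 65 pathway genes tested on rows in order, 12 were higher and 36 lower, with a median of -0.80 against 0.01 over all genes, of which 20.4% were higher and 23.0% lower.

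**Figure D4:**
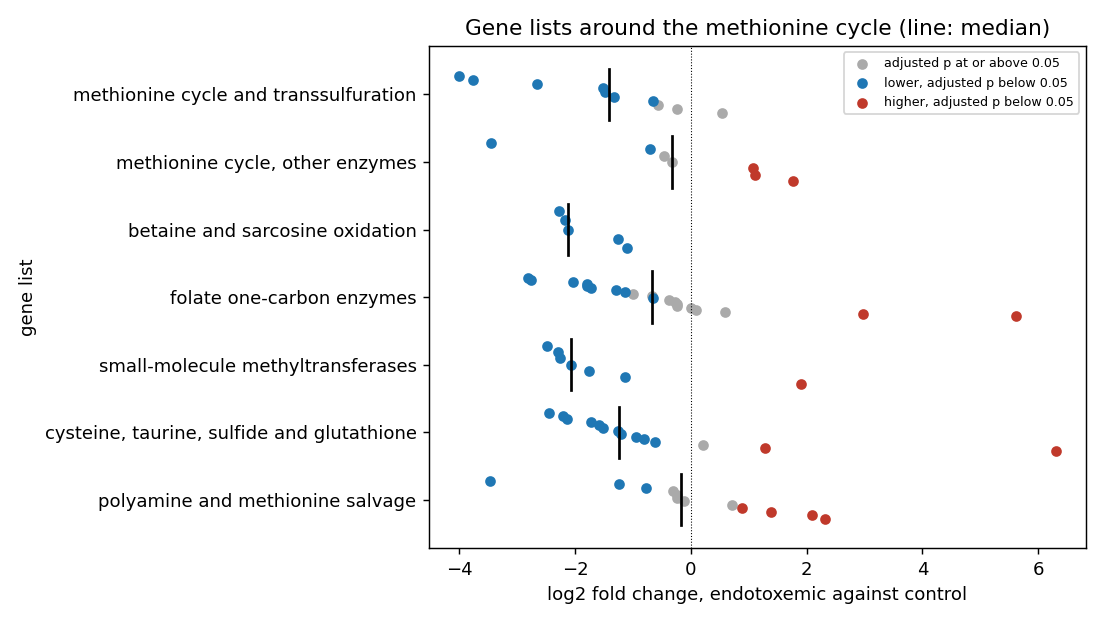
log2 fold change in endotoxemic relative to control livers for the 10 enzymes and 6 related gene lists on rows in genomic order. Each point is a gene, coloured by its call at adjusted p below 0.05, and vertical lines are list medians, which run from -2.12 for betaine and sarcosine oxidation to -0.17 for polyamine and methionine salvage.

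In LGK974 relative to endotoxemic livers, 5 of the 65 pathway genes were higher and 2 lower, with a median of 0.10 against 0.03 over all genes, of which 2.80% were higher and 2.82% lower. *Bhmt2* counted 21.2 and 38.9 CPM in LGK974 libraries (1.52, SE 0.29, edgeR adjusted p = 0.0215). *Ftcd*, of histidine-derived folate units, was at 1.09, *Gcsh*, of glycine cleavage, at 1.08 and *Csad*, of taurine synthesis, at 0.89. These 4 genes had fallen after LPS and were also below control in LGK974 livers, with log2 fold changes of -1.92, -0.71, -0.95 and -0.61 in that order and edgeR adjusted p of 0.000835 to 0.0463. The fall after LPS and the comparison of LGK974 with endotoxemic livers share the endotoxemic libraries, so low values there favour both. Of the 65 genes, 36 were called lower after LPS. Relative to control, *Ftcd* lost its call without any 1 of the endotoxemic or control libraries, *Csad* without those or LGK974 library 2, and *Gcsh* without control library 1 (edgeR adjusted p of 0.0538 to 0.277). *Got1*, aspartate aminotransferase, was lower than in endotoxemic livers, at -1.13 (SE 0.25, edgeR adjusted p = 0.0374), as was *Smox*, spermine oxidase, at -1.80 (SE 0.34, edgeR adjusted p = 0.0197). These counts rest on all 6 libraries: with either endotoxemic library left out, 0 of the 65 were called in either direction, and with either control library left out 1 was called in each. Without LGK974 library 1 they were 13 higher and 10 lower.

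Relative to control, 8 of the 65 pathway genes were higher in LGK974 livers and 31 lower, with a median of -0.48 against 0.02 over all genes, of which 16.4% were higher and 17.7% lower. *Mthfd2* was at 5.17, *Mthfd1l* at 3.18 and *Nnmt* at 1.61. *Slc7a11* was called higher too, with a fitted value of 4.07 that rests on 1 and 0 control counts. It was 6.36 without control library 1, and without control library 2 it was 3.01 and lost its call (edgeR adjusted p = 0.115). *Sardh* was at -2.74, *Pipox*, which also oxidizes sarcosine, at -1.95, *Shmt2*, the mitochondrial relative of *Shmt1*, at -2.02, *Inmt* at -2.50, *Gldc* at -2.72, *Ethe1*, which oxidizes sulfide-derived persulfide, at -2.60, *Gamt*, of creatine synthesis, at -2.54 and *Suox* at -2.39. *Mtrr* was at 1.14 and *Ahcyl1* at -0.96. The edgeR adjusted p of these genes ranged from 1.07e-05 to 0.024. The LGK974 libraries were far apart for *Inmt* (411 and 78.9 CPM), which was at -4.13 without library 1 and -1.75 without library 2, and for *Gamt* (50.05 and 13.8 CPM), at -3.74 and -1.89. The call of *Inmt* was lost without control library 1 (edgeR adjusted p = 0.0763), that of *Mtrr* without either control library or LGK974 library 1 (0.0872 to 0.1105) and that of *Ahcyl1* without either control library (0.0738 to 0.07695).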

How the data were processed

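RNA was measured in liver libraries of 3 groups. The authors deposited whole-number counts of 3′-end reads per gene symbol, not normalized; the submitters' processing notes name Bowtie2, mm10 and edgeR. The counting program, annotation and strand setting are not given in the sources used here. Libraries with identical counts were counted once. Counts were tested with edgeR 4.0.16 in R 4.3.3 (filterByExpr, TMM, quasi-likelihood F test, 1 fit of 3 groups, 6 libraries), with p-values adjusted by the Benjamini-Hochberg method over 12701 rows and a threshold of 0.05. The standard error is the log2 fold change divided by the root of F. The fit was tested on simulated data. Alternatives included DESeq2 1.42.0, other filters and scalings, a replicate block and each library left out.

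Row symbols were compared with RefSeq positions on GRCm38. Of 23282 rows, 23134 had a position, 22346 stood in order, 209 stood off the order but within 2 megabases of a neighbour, and 579 stood out of order. Intervals cover the spread between libraries. Members, pathway lists and marker lists were chosen with earlier results of these data known. Genes named are the 10 members, the other cycle enzymes and, from each other list, up to 2 largest rises and 2 largest falls called in a comparison. *Gcsh*, *Srm*, *Sat1* after LPS, *Mtap*, *Apip* and *Enoph1* were named outside that rule, after their values were seen. Some genes that the rule names are not reported here.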

Additional observations from a re-analysis of the deposited data

How the results depend on the processing

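Of 160 values each (10 enzymes, 16 alternatives), 145 kept direction and call in endotoxemic against control livers, 4 lost the call and 11 gained it; the same counts were 142, 0 and 9 in LGK974 against endotoxemic livers, where 9 changed sign, and 152, 2 and 5 in LGK974 against control, where 1 changed sign. The cause was not tested. The enzymes called higher after LPS numbered 1 in place of 0 with no low-count filter, with DESeq2, with identical libraries as separate samples, without the *Rn45s* row, without rows out of order and in a fit of 2 groups, and 0 to 1 with 1 library left out. Against endotoxemic livers, enzymes lower numbered 1 with no filter, 1 with DESeq2 and 2 with identical libraries kept apart, and 0 to 4 with 1 library left out. There, all genes higher and lower numbered 881 and 824 with no filter, 604 and 627 with DESeq2, 1711 and 1548 with identical libraries kept apart and 107 and 162 in a fit of 2 groups; pathway genes numbered 10 and 4, 8 and 4, 13 and 5, and 0 and 1. With 1 library left out, the lone library of that group is assumed to vary like the other groups, and calls higher and lower ran as follows. After LPS, all genes ran from 1517 to 3196 and 1801 to 3523 and pathway genes higher from 6 to 13. Against endotoxemic livers, all genes ran from 23 to 1175 and 26 to 1067 and pathway genes from 0 to 13 and 0 to 10. Against control, LGK974 livers had 1041 to 2608 and 1331 to 2761 of all genes, 0 to 1 enzymes higher and 5 to 9 pathway genes higher.

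With 1 library left out, values against endotoxemic livers ran from -0.33 to 0.29 for *Gnmt*, -1.57 to 0.05 for *Bhmt*, -0.81 to 0.27 for *Cth*, -0.29 to 0.44 for *Pemt* and -0.82 to 0.34 for *Cdo1*, and from -1.06 to 0.11 for *Cdo1* against control; the lower end of *Bhmt*, *Cth*, *Gnmt* and *Cdo1* came without LGK974 library 1 and that of *Pemt* without library 2. *Gnmt* changed sign to -0.00057 with DESeq2 size factors and with the DESeq2 test, to -0.01 with the replicate block and to -0.04 without endotoxemic library 1. Libraries share only a number: deviations of same-numbered libraries correlated at 0.14, 0.061 and -0.007. The replicate block left 7 enzymes lower and 0 higher after LPS, 0 against endotoxemic livers, and 2577 genes higher and 2908 lower after LPS. Median log2 fold changes under TMM and size factors differed by 0.02 or less. Depth limits the low genes most: 3 counts equal 0.197 to 0.328 CPM.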

Other observations

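Polyamine synthesis and methionine salvage, which recycles the methylthio group left over when S-adenosylmethionine is used for polyamines, held genes called in each direction after LPS. Of 12 genes tested on rows in order, 4 were higher and 3 lower, with a median log2 fold change of -0.17 against 0.01 over all genes, of which 20.4% were higher and 23.0% lower, so the count of lower genes is near the background. *Odc1*, the first step of polyamine synthesis, counted 24.6 and 27.1 CPM in control, 112 and 108 in endotoxemic and 80.2 and 60.3 in LGK974 livers. It rose by 2.09 after LPS (SE 0.21, edgeR adjusted p = 7.66e-05), and all LGK974 values lay between those of the other groups. *Smox*, which oxidizes spermine, counted 2.60 and 2.55 CPM in control, 12.6 and 13.2 in endotoxemic and 4.38 and 3.05 in LGK974 livers. It rose by 2.32 after LPS (SE 0.35, edgeR adjusted p = 0.000722) and was lower in LGK974 than in endotoxemic livers, at -1.80 (SE 0.34, edgeR adjusted p = 0.0197), a difference in which sex and treatment cannot be told apart and whose call was lost without endotoxemic library 1 or 2 (0.139 and 0.178). *Srm*, spermidine synthase, and *Sat1*, which acetylates polyamines, were the other 2 called higher, at 0.88 and 1.38, with edgeR adjusted p of 0.00747 and 0.0385. The calls of *Sat1* and, below, *Mtap* were lost without any 1 of the endotoxemic or control libraries (edgeR adjusted p of 0.0814 to 0.182) and that of *Srm* without endotoxemic library 2 or either control library (0.05975 to 0.0662). The 3 lower genes were *Adi1*, *Mri1* and *Mtap*, enzymes of methionine salvage, while *Apip* and *Enoph1* of the same route were at 0.71 (edgeR adjusted p = 0.0543) and -0.24 (0.749). *Adi1* counted 69.5 and 89.6 CPM in control, 6.44 and 7.99 in endotoxemic and 10.6 and 18.6 in LGK974 livers, and fell by 3.46 after LPS (SE 0.32, edgeR adjusted p = 4.35e-05). *Mri1* fell by 1.23 (SE 0.32, edgeR adjusted p = 0.0136) and *Mtap* by 0.77 (SE 0.23, edgeR adjusted p = 0.0244), the call of *Mri1* being lost without endotoxemic library 1 or 2 or control library 2 (0.05225 to 0.118). In LGK974 relative to control livers, 3 genes of the list were higher, among them *Sat1* at 1.66 and *Odc1* at 1.44, and 1 was lower, *Adi1* at -2.44, with edgeR adjusted p of 0.000293 to 0.0229, against 16.4% of all genes higher and 17.7% lower. *Sat1* counted 179 and 51.5 CPM in the LGK974 libraries and was at 0.51 without library 1 (edgeR adjusted p = 0.0777) and 2.30 without library 2, and its call was also lost without either control library (0.113 and 0.127). Against endotoxemic livers *Smox* was the 1 gene of the list called, where 2.80% of all genes were higher and 2.82% lower.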
